A study of Saccharomyces cerevisiae with 11 samples.

Results

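TRP1, HIS3, URA3, LEU2, LYS2 and ADE2 are the biosynthetic genes most often mutated in laboratory strains of budding yeast (Saccharomyces cerevisiae) to serve as selectable markers. Every probe set annotated to exactly 1 of the 6 genes was followed, however low its values, which gave 9 probe sets among the 6504 that list 1 gene, and 6 genes among 5656. HIS3 had 2 probe sets, LEU2 had 3 and the other genes had 1 each, and no probe set listed a marker gene together with another gene. The genes were grouped for their marker use with differences of some of them between the strains already known, so their values on the strain arrays are given as a description, and where markers past a threshold of the fit are counted, the count is no independent test.

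The 11 arrays formed a strain set of 5 and a time course of 6. Strain arrays came from 2 wild type, 2 paf1 deletion and 1 ctr9 deletion samples, all grown to mid-log phase in YPD, a rich medium that supplies amino acids and bases, with 4% glucose. Paf1 and Ctr9 are subunits of the Paf1 complex, which travels with RNA polymerase II. The time course followed a TetO2-Paf1 strain, in which doxycycline represses the promoter in front of PAF1, without the drug (0 h) and after 2, 4, 5, 6 and 8 h with it, 1 array per time and no untreated array beyond 0 h; its medium was not named. The labels gave no strain background, no marker alleles and no construction of the deletions, so an effect of losing a subunit and a difference in strain background cannot be told apart. Nothing in the labels said whether replicates were separate cultures.

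An auxotrophic strain cannot make the product of 1 pathway and needs it from the medium. A plasmid or a disruption cassette that carries an intact copy of the missing gene is selected by growth without that product, and a gene is often deleted by replacing it with such a marker. Some marker alleles in common use remove the gene, so that no transcript is made, and others change few bases and can leave a transcript. A transcript level therefore reports whether RNA that matches the probes was made, not whether the enzyme works. TRP1 encodes phosphoribosylanthranilate isomerase of tryptophan synthesis, and HIS3 imidazoleglycerol-phosphate dehydratase of histidine synthesis. LEU2 encodes isopropylmalate dehydrogenase of leucine synthesis, and LYS2 aminoadipate reductase of lysine synthesis. URA3 encodes orotidine phosphate decarboxylase of pyrimidine synthesis, and ADE2 phosphoribosylaminoimidazole carboxylase of purine synthesis.

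The strain arrays were deposited as a score per probe set between -10 and 10 with no stated scale, and the time course as a linear signal intensity, so the 2 sets were never subtracted from each other. Controls without a yeast target, 28 in all, scored between -2.08 and 1.93 and had signals between 0.5 and 44.2, and a value within these ranges is called background here. The median difference between replicate arrays was 0.62 score units in the wild type pair and 0.54 in the paf1 deletion pair, and 95% of probe sets differed by less than 2.20 and 2.19. Over the 9275 probe sets other than controls, mean score and mean signal had a Spearman correlation of 0.923, but -0.244 among the 928 with the highest signals. Scores and signals of abundant transcripts thus did not rank alike, and the cause was not tested. PAF1, the check of the paf1 deletion, scored 7.27 and 8.08 on the wild type arrays and 6.86 on the ctr9 deletion array, against 1.00 and 0.47, both background, on the paf1 deletion arrays. CTR9 scored 0.00 on the ctr9 deletion array, but one of its wild type scores, 1.84, was background too. In the time course PAF1 signal was 272.0 at 0 h, then 118.8, 139.0, 164.8, 184.0 and 165.8 at 2, 4, 5, 6 and 8 h. It was thus lower at all later times but lowest at 2 h, and it was never background. The arrays therefore do not show a progressive loss of PAF1 RNA. The 4 h and 6 h arrays stood apart by spike-in signals of 4.34 and 3.93 times those at 0 h (1.01 to 1.14 times at the other times), and the 4 h array also by an actin 5′ to 3′ signal ratio of 5.92% (68.6% to 78.6% elsewhere).

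TRP1 RNA was at background in the paf1 deletion and well above it in the other strains. Wild type arrays scored 7.56 and 7.24, the ctr9 deletion array 7.28, and the paf1 deletion arrays -0.65 and -1.96. The 3 high scores lie close together, and the paf1 deletion scores do not overlap them. The difference between the paf1 deletion and wild type was -8.71 score units (SE 0.69, n = 2 per group), the second lowest of 9275. Against the ctr9 deletion it was -8.59 (SE 0.84, n = 2 against 1), while the ctr9 deletion differed from wild type by -0.12 (SE 0.84). In RNA of a whole culture, fewer cells with the transcript and less of it per cell cannot be told apart.

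HIS3 showed the opposite pattern, with RNA well above background in the paf1 deletion alone. Probe set 8359_at scored -1.69 and -0.54 on the wild type arrays, 0.05 on the ctr9 deletion array, and 7.25 and 7.30 on the paf1 deletion arrays. Probe set 8360_at scored -0.69 and -1.82, then 1.22, and 5.95 and 6.06 in the same order. On both probe sets all wild type and ctr9 deletion scores were background, and the paf1 deletion scores, from 5.95 up, were far above the highest control score of 1.93. The paf1 deletion exceeded wild type by 8.39 (SE 0.72, n = 2 per group) on 8359_at and 7.26 (SE 0.73) on 8360_at, the highest and the second highest differences among the 9275 probe sets. Each was taken from a level at background, and as scores they are not fold changes.

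**Figure D1:**
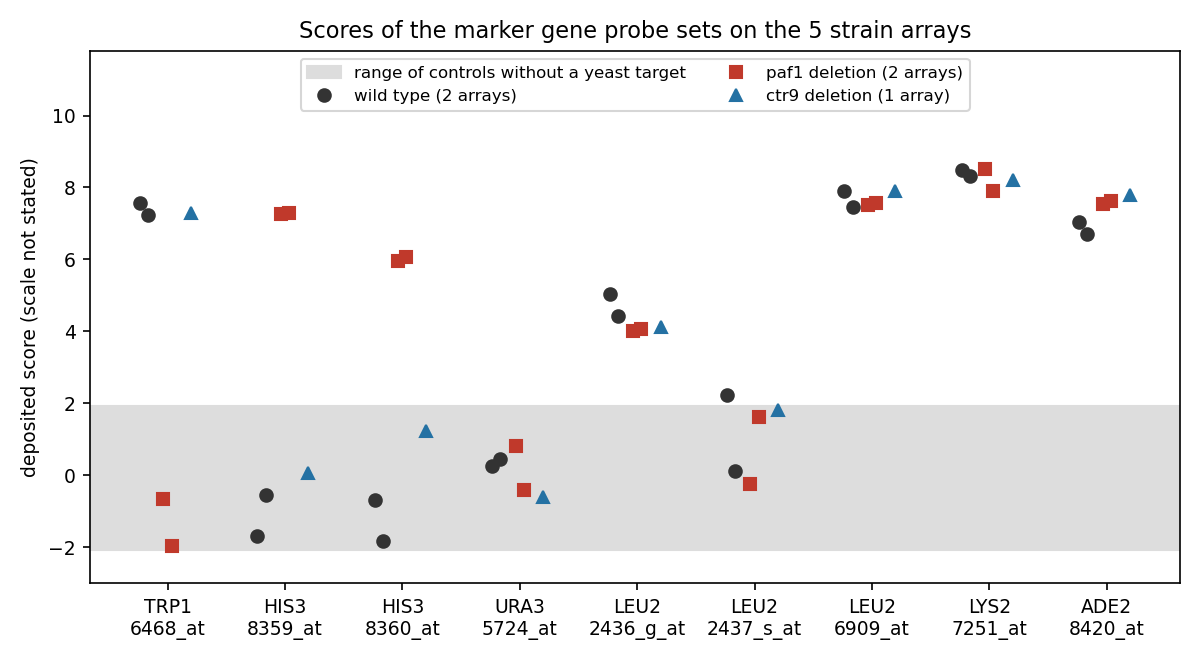
Deposited score (vertical axis, scale not stated) of each of the 9 marker gene probe sets on the 5 strain arrays, 1 point per array, with the range of the 28 controls without a yeast target (-2.08 to 1.93) shaded. TRP1 lies in the shaded range in the paf1 deletion only, HIS3 lies above it in the paf1 deletion only, and URA3 lies in it on all 5 arrays.

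On its 1 annotated probe set, URA3 was at background on every strain array. Probe set 5724_at scored 0.26 and 0.46 on the wild type arrays, 0.82 and -0.42 on the paf1 deletion arrays and -0.60 on the ctr9 deletion array. These 5 scores span 1.42 score units, where 45.6% of all probe sets had a smaller range, and no strain stands out. The paf1 deletion differed from wild type by -0.16 (SE 0.81) and the ctr9 deletion by -0.96 (SE 1.00). A control probe set named for URA3, which is not in the annotation and is no member, scored 1.74 to 3.76 on the same arrays, above background on 4 of 5.

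LEU2 was read differently by its 3 probe sets. Probe set 6909_at scored 7.90 and 7.47 on the wild type arrays, 7.51 and 7.58 on the paf1 deletion arrays and 7.89 on the ctr9 deletion array. Only 2.85% of all probe sets had a smaller range than its 0.43, and the groups overlap. Probe set 2436_g_at gave 5.04 and 4.42, 4.02 and 4.07, and 4.13 in the same order, so both wild type scores lie above the deletions, with a paf1 deletion difference of -0.69 (SE 0.62). Probe set 2437_s_at gave 2.23 and 0.12, -0.25 and 1.63, and 1.82, background on 4 of 5 arrays. Which stretch of LEU2 each probe set covers is not given in the sources used here, and levels of different probe sets cannot be ranked against each other.

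LYS2 and ADE2 were above background in every strain. LYS2 scored 8.48 and 8.33 on the wild type arrays, 8.51 and 7.89 on the paf1 deletion arrays and 8.22 on the ctr9 deletion array, so the groups overlap, with a paf1 deletion difference of -0.20 (SE 0.35). ADE2 scored 7.03 and 6.71, 7.55 and 7.63, and 7.78 in the same order. All 3 deletion scores of ADE2 lie above both wild type scores, by differences of 0.72 (SE 0.41) for the paf1 and 0.91 (SE 0.50) for the ctr9 deletion, which share the wild type arrays. Both are smaller than the 2.20 score units by which replicate arrays of 95% of probe sets differed at most.

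Counted over all 9 probe sets, the paf1 deletion and wild type scores did not overlap for 5, namely TRP1, both HIS3 probe sets, LEU2 2436_g_at and ADE2, against 42.2% of all probe sets. HIS3 and ADE2, 3 of 9, were higher in the paf1 deletion (21.2% of all) and TRP1 and LEU2 2436_g_at, 2 of 9, lower (21% of all). The genes were chosen with this contrast known, so the counts that follow describe the same values and support nothing. In the fit over all 9275 probe sets (limma, Benjamini-Hochberg adjusted p under 0.05), TRP1 and both HIS3 probe sets were past the threshold between the paf1 deletion and wild type, 3 of 9 against 0.442% of all probe sets. HIS3 accounts for 2 of 9 higher (0.28% of all) and TRP1 for 1 of 9 lower (0.162% of all). Between the 2 deletions TRP1 and HIS3 8359_at were past it, 2 of 9 against 0.0539%, with 1 of 9 higher (0.0108% of all) and 1 of 9 lower (0.0431% of all), and HIS3 8360_at, at 4.79 (SE 0.89), was not. Without either wild type array 0 marker probe sets passed in both comparisons, although the sizes stayed between -8.87 and -8.55 for TRP1 against wild type and between 6.70 and 8.97 for HIS3. None passed between the ctr9 deletion and wild type, where 0% of all probe sets passed and 799 had an unadjusted p under 0.05. HIS3 8360_at, at 2.48 (SE 0.89), had a ctr9 deletion score that was still background.

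In the TetO2-Paf1 strain the set of marker RNAs above background was again different, and it was the same at every time. Signals are given in the order of sampling, from 0 h through 2, 4, 5 and 6 to 8 h. TRP1 signal was 177.7, 197.8, 202.7, 162.2, 198.2 and 169.8. URA3 signal was 227.1, 158.0, 236.8, 197.1, 176.5 and 254.0. Both genes were above the highest control signal on all 6 arrays, and neither moved steadily with time.

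HIS3 signals lay between 0.6 and 4.4 on 8359_at and between 0.5 and 6.7 on 8360_at, which is background on all 6 arrays. Since 11 of these 12 signals were below the floor of 5.6 set before taking logarithms, no slope is given for HIS3. A difference in HIS3 among the 6 times was thus not detectable at these signals. On these probe sets RNA above background thus took 3 forms, TRP1 without HIS3 and URA3 in the wild type and ctr9 deletion arrays, HIS3 without TRP1 and URA3 in the paf1 deletion arrays, and TRP1 and URA3 without HIS3 in the TetO2-Paf1 arrays.

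**Figure D2:**
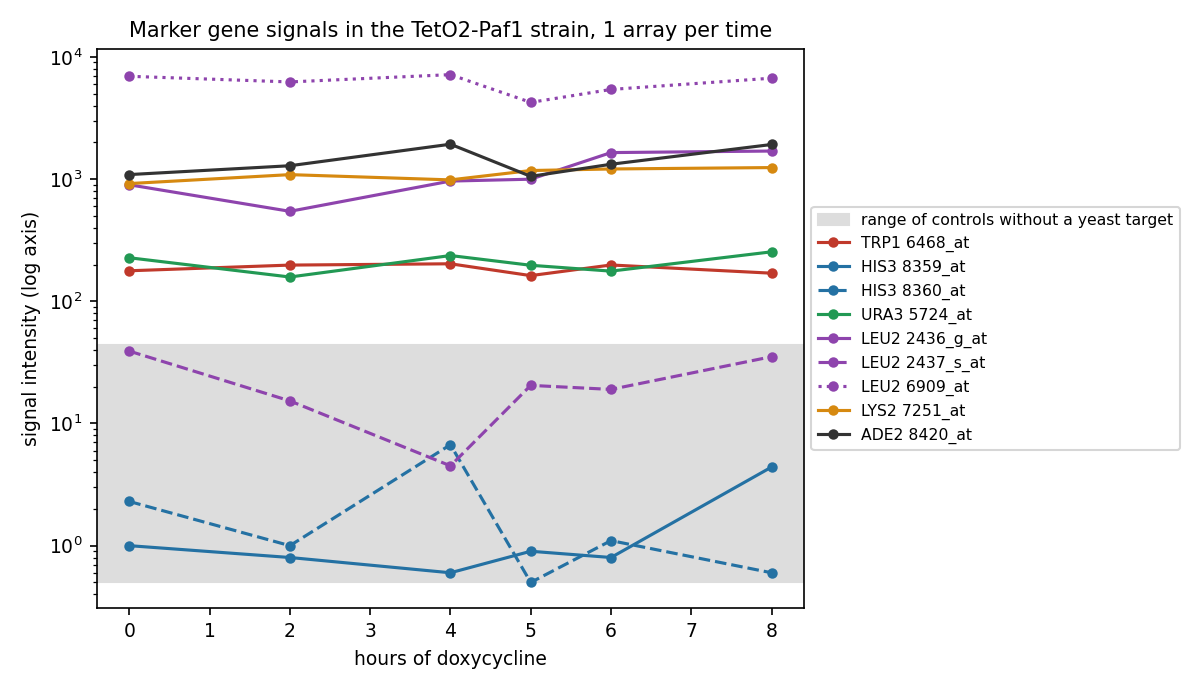
Signal intensity (vertical log axis) of the 9 marker gene probe sets against hours of doxycycline in the TetO2-Paf1 strain, 1 array per time, with the range of the 28 controls without a yeast target (0.5 to 44.2) shaded. Both HIS3 probe sets and LEU2 2437_s_at stay in the shaded range at all 6 times, and the other 6 probe sets stay above it.

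LEU2 signal on 6909_at was 6939.9, 6240.1, 7159.1, 4244.1, 5416.7 and 6696.7. Its lowest value, at 5 h, was 0.612 times that at 0 h, and the later arrays lay between. Probe set 2436_g_at gave 898.4, 544.8, 963.5, 998.0, 1647.9 and 1696.7, so its 2 latest arrays, at 1.83 and 1.89 times 0 h, were the highest, while 6909_at was at 0.781 and 0.965 times 0 h there. Probe set 2437_s_at gave 4.5 to 39.1, background at every time. The values of the 2 detected LEU2 probe sets thus took different courses within the same RNA samples.

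LYS2 signal was 919.0, 1087.8, 985.2, 1175.0, 1210.1 and 1242.4, all later values being above 0 h. ADE2 signal was 1088.8, 1286.2, 1929.6, 1053.0, 1322.9 and 1919.5, with the 4 h and 8 h arrays high at 1.77 and 1.76 times 0 h and the 5 h array between them at 0.967 times. The 4 h array is the one with the low actin ratio and raised spike-in signals, and the part of these in its ADE2 value was not tested.

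The question of a trend over the hours of doxycycline was put to a slope of log2 signal, fitted over the 6 arrays. None of the 9 marker probe sets passed (limma, Benjamini-Hochberg adjusted over 9275), against 0% of all probe sets. Of all probe sets 838, or 9.04%, had an unadjusted p under 0.05. On HIS3 8359_at all 6 signals were below the floor, which fixed its slope at 0, so it could not pass. HIS3 8360_at had only its 4 h signal, 6.7, above the floor. The slope of LYS2 was 0.05 log2 units per hour (SE 0.02, limma adjusted p = 0.522) and that of LEU2 2436_g_at 0.17 (SE 0.06, limma adjusted p = 0.546), the 2 marker probe sets with an unadjusted p under 0.05. ADE2 had a slope of 0.07 (SE 0.05, limma adjusted p = 0.690) and LEU2 6909_at one of -0.03 (SE 0.04, limma adjusted p = 0.893), while LEU2 2437_s_at, at background, had 0.0033 (SE 0.16, limma adjusted p = 1). For URA3 it was 0.02 (SE 0.04, limma adjusted p = 0.921), and for TRP1 -0.01 (SE 0.03, limma adjusted p = 0.946). With 1 array per time, single times could not be tested. Over the 6 arrays TRP1 varied by 1.25 times from lowest to highest, and 8.39% of all probe sets had a smaller log2 range.

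Because scores and signals have different units, the strains and the time course were set side by side only by the place of each probe set among the 9275 of its own array. URA3 lay between percentiles 3.4 and 11.9 on the strain arrays and between 55.7 and 63.9 in the TetO2-Paf1 strain. TRP1 lay at percentiles 79.4 and 80.8 in wild type, 78.3 in the ctr9 deletion, 3.0 and 0.5 in the paf1 deletion and 56.1 to 60.1 in the TetO2-Paf1 strain. HIS3 8359_at lay at percentiles 1.0 and 3.5 on the wild type arrays, 78.3 and 81.4 on the paf1 deletion arrays, and at or below 7.7 in the TetO2-Paf1 strain. URA3 was thus higher placed in the TetO2-Paf1 strain, with no overlap between the 2 sets. A lack of overlap was not particular to URA3. LEU2 2436_g_at lay at percentiles 39.0 to 51.3 on the strain arrays and 77.3 to 90.2 in the TetO2-Paf1 strain. LEU2 6909_at lay at 81.7 to 85.9 and at 95.9 to 98.3. LYS2 and ADE2 stayed at percentile 73.1 or above on all 11 arrays, but did not overlap either. ADE2 was higher placed in the TetO2-Paf1 strain, at 85.8 to 91.2 against 73.1 to 85.6. LYS2 was lower placed there, at 84.0 to 87.1 against 88.5 to 94.0. The share of all probe sets without overlap was not counted. No test belongs to these places, since strain, values and their processing changed together between the 2 sets.

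**Figure D3:**
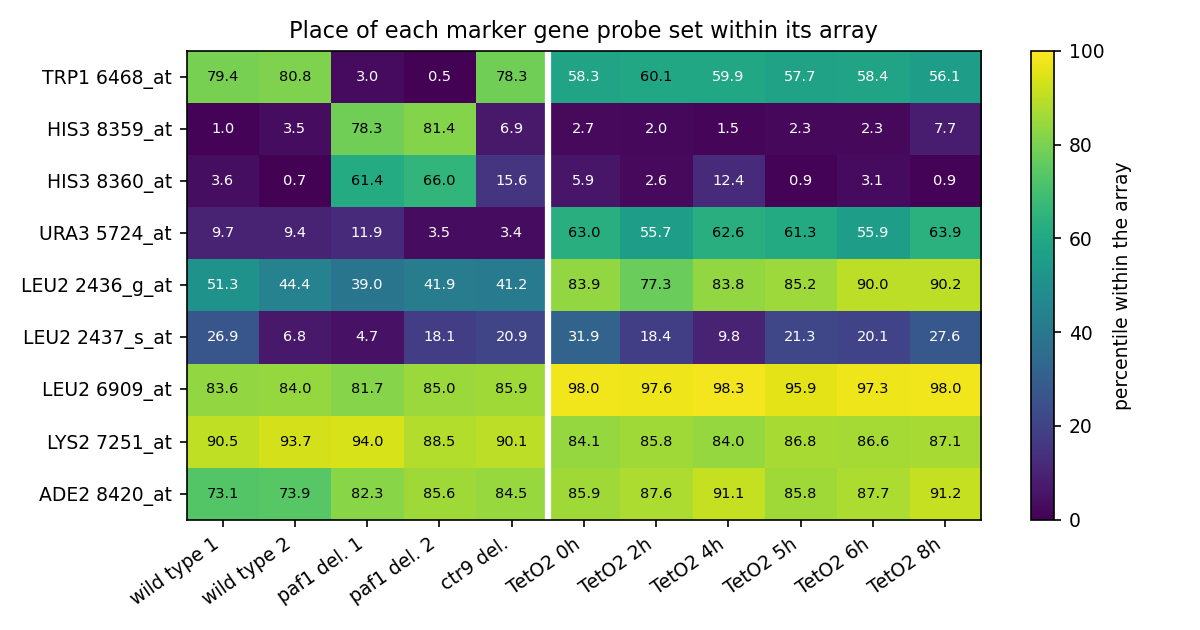
Percentile of each marker gene probe set (rows) among the 9275 probe sets of its own array (columns; strain arrays left of the white line, TetO2-Paf1 times right of it), printed in each cell and coloured from 0 to 100. URA3 changes from 3.4 to 11.9 left of the line to 55.7 to 63.9 right of it, TRP1 is low in the paf1 deletion and HIS3 high there.

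The genes beside each marker on its chromosome were followed to see how far a difference extended. Of the 24 nearest neighbours, 2 on each side, 20 had a probe set of their own, and their differences between the paf1 deletion and wild type ran from -2.40 to 1.25. None of the 20 passed in limma, and 2, ORT1 and AFI1, both beside ADE2, had an unadjusted p under 0.05, against 12.9% of all probe sets. Next to TRP1, SOK1, a protein kinase gene, scored 6.64 and 7.10 on the wild type arrays and 7.17 and 7.59 on the paf1 deletion arrays. MAF1, the gene of a repressor of RNA polymerase III, lies beyond SOK1 and scored 5.35 and 4.63 on the wild type arrays, 3.79 and 3.82 on the paf1 deletion arrays and 5.47 on the ctr9 deletion array. Its paf1 deletion scores lay below the others, as those of TRP1 did, but above background, at a difference of -1.19 (limma adjusted p = 0.460). GAL3, a regulator of galactose genes on the other side, scored 2.77 and 1.99 on the wild type arrays, 2.32 and 1.89 on the paf1 deletion arrays and 1.25 on the ctr9 deletion array. GAL3 was thus at or close to background in every strain, where a drop is not detectable.

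Next to HIS3, MRM1, which encodes a methyltransferase of mitochondrial ribosomal RNA, scored 4.56 and 5.45 on the wild type arrays and 5.59 and 4.41 on the paf1 deletion arrays. DED1, an RNA helicase gene on the other side, scored 8.95 and 8.41 against 8.30 and 8.63. The paf1 deletion and wild type scores of both genes overlap, at differences of -0.005 and -0.21, beside 8.39 for HIS3. Next to URA3, GEA2, which encodes an exchange factor of vesicle traffic, and TIM9, which encodes an import protein of mitochondria, scored at least 6.89 and 6.69 on every strain array, where URA3 5724_at was at background.

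The lowest of the neighbours was ORT1, a mitochondrial ornithine transporter gene that lies 2 places from ADE2. It scored 6.07 and 5.11 on the wild type arrays, 3.15 and 3.23 on the paf1 deletion arrays and 2.79 on the ctr9 deletion array. All deletion scores lay below both wild type scores, by differences of -2.40 (limma adjusted p = 0.149) and -2.80 (limma adjusted p = 0.336), where those of ADE2 lay above.

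**Figure D4:**
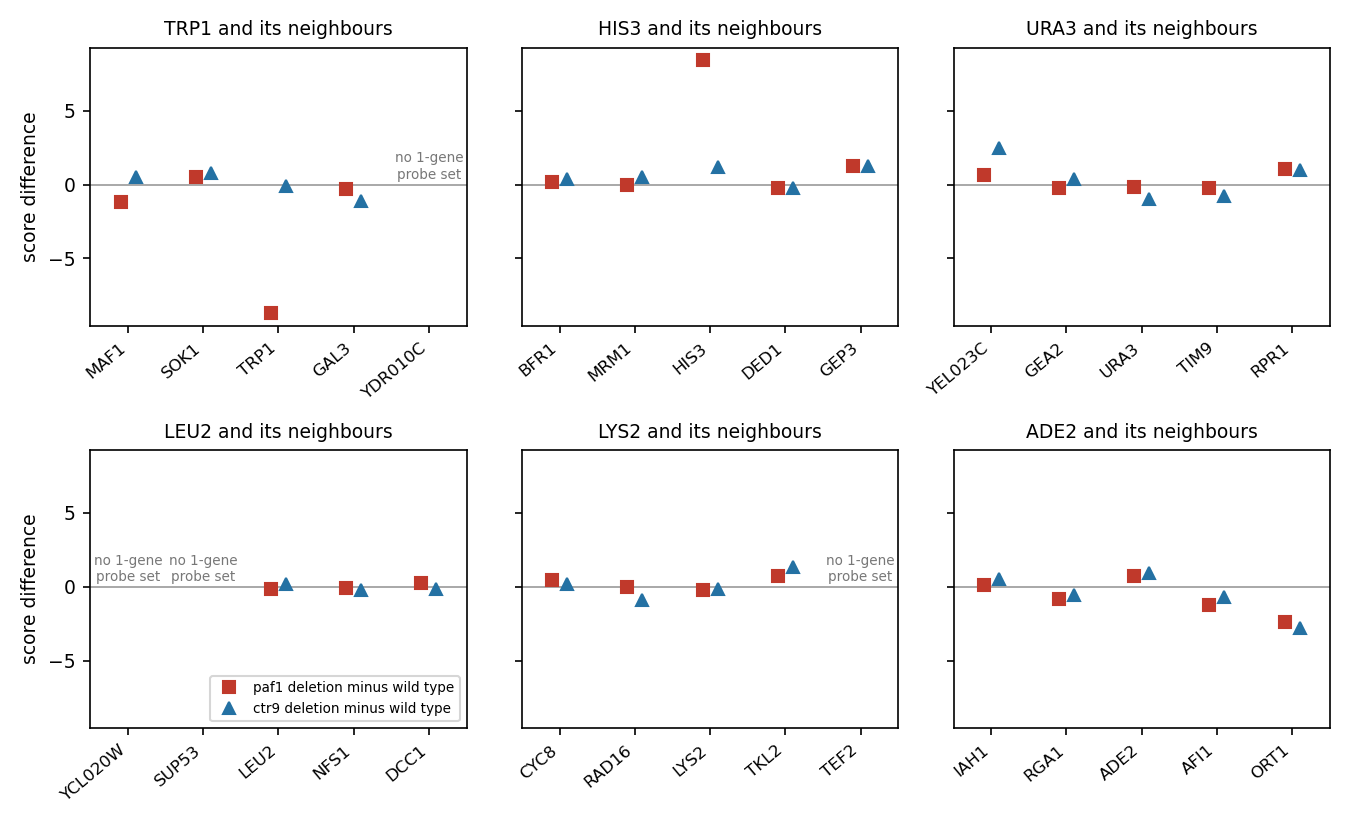
Difference in score from wild type (vertical axis) for each marker gene and the 2 annotated genes on each side of it, in chromosome order, as squares for the paf1 deletion (2 arrays against 2) and triangles for the ctr9 deletion (1 against 2). TRP1 at -8.71 and HIS3 at 8.39 lie outside the range of the measured neighbours of all 6 genes, -2.40 to 1.25 in the paf1 deletion. On the GAL3 side of TRP1 a drop is not detectable, since GAL3 was at or close to background and YDR010C had no probe set of its own.

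The other enzymes and regulators of the 6 pathways showed no differences of the size seen for TRP1 and HIS3. Of 55 listed genes, 54 had a probe set, and 53 of these were above background on all 5 strain arrays, against 6326 of all 9275 probe sets. In the paf1 deletion 14 were higher and 40 lower than in wild type with a median of -0.22. Over all 9275 probe sets 4584 were higher and 4657 lower, with a median of -0.005. None of the 54 passed (limma, Benjamini-Hochberg), and 5 had an unadjusted p under 0.05, all lower, namely TRP4, ILV2, LYS4, LYS14 and ADE8, where 12.9% of all probe sets had one. In the ctr9 deletion 23 were higher and 31 lower with a median of -0.11, and none passed, with 4 at an unadjusted p under 0.05, against 8.61% of all probe sets.

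Among the other tryptophan genes 4 were higher and 4 lower in the paf1 deletion, with a median of 0.0075. TRP4, the gene of the preceding enzyme of the pathway, scored 6.48 and 5.53 on the wild type arrays and 4.58 and 4.49 on the paf1 deletion arrays, a difference of -1.47 (limma adjusted p = 0.341). ARO4, which encodes an entry enzyme of aromatic amino acid synthesis, differed by -0.66. For histidine 1 was higher and 5 lower, with HIS6, an isomerase gene, at -1.17, HIS7, a synthase gene, at -0.74 and HIS2, a phosphatase gene, at -0.70, while HIS3 stood at 8.39.

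All 10 leucine and valine pathway genes had lower means in the paf1 deletion, none past the threshold, with a median of -0.40. The lowest were ILV2, the acetolactate synthase gene, at -1.08 and LEU3, the gene of the pathway's transcription factor, at -1.06. Not all of them were separate from wild type on single arrays. LEU1 scored 7.30 and 6.40 on the wild type arrays and 6.40 and 6.92 on the paf1 deletion arrays. BAT2 scored 9.15 and 7.33 against 8.13 and 8.22, so the scores of both genes overlap. The lysine genes split 4 higher and 5 lower, with the transcription factor gene LYS14 at -1.42, LYS4, which encodes homoaconitase, at -1.29, and LYS1, which encodes saccharopine dehydrogenase, at 0.68. In the ctr9 deletion LYS4 differed from wild type by -1.33 (limma adjusted p = 0.503).

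Pyrimidine genes lay between -0.46 for the uracil permease gene FUR4 and 0.58 for URA10, a minor orotate phosphoribosyltransferase gene. URA10 scored 2.23 and 3.41 on the wild type arrays and 4.62 and 2.18 on the paf1 deletion arrays. Its groups thus overlap, and its lowest score was close to the highest control score of 1.93. Of the 10 measured adenine genes 8 were lower and 2 higher. ADE8, the gene of a purine pathway transformylase, scored 8.49 and 8.07 on the wild type arrays, 5.88 and 6.78 on the paf1 deletion arrays and 7.40 on the ctr9 deletion array, a paf1 deletion difference of -1.95 (limma adjusted p = 0.105). BAS1, the gene of a transcription factor of purine and histidine genes, differed by -1.63 (limma adjusted p = 0.424). It scored 4.59 and 5.34 on the wild type arrays and 4.34 and 2.33 on the paf1 deletion arrays. ADE1 differed by 0.61, but its scores overlap, at 8.25 and 6.53 against 7.97 and 8.04, whereas ADE2 was at 0.72. GCN4, the gene of the activator of amino acid synthesis genes, scored 8.46 and 7.69 on the wild type arrays. It scored 7.80 and 8.15 on the paf1 deletion arrays and 7.90 on the ctr9 deletion array, so the groups overlap.

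**Figure D5:**
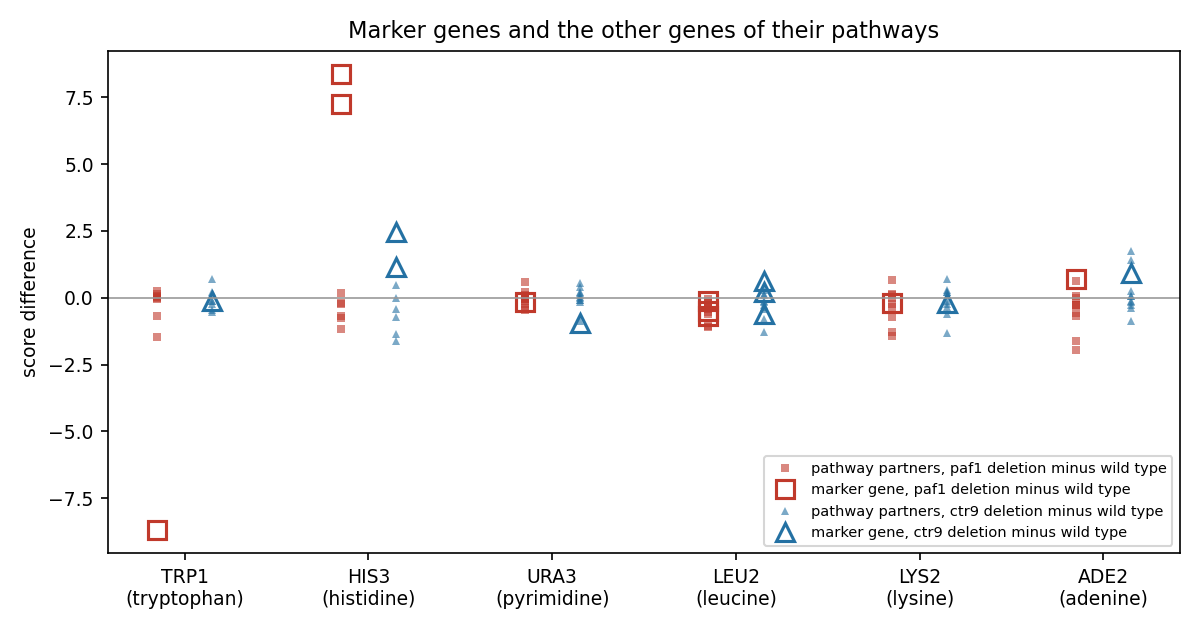
Difference in score from wild type (vertical axis) for the 54 measured genes of the 6 pathways (small filled points, 1 per gene) and the marker genes (large open points, 1 per probe set), in the paf1 deletion (squares) and the ctr9 deletion (triangles). The pathway genes lie between -1.95 and 1.76, and TRP1 and both HIS3 probe sets lie outside that band in the paf1 deletion, as does HIS3 8360_at, at 2.48, in the ctr9 deletion.

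Other loci used in strain work, and mating genes, showed smaller differences. MET17, CAN1, LYP1 and RPL28, which serve as nutritional or drug-resistance markers, were above background on all 11 arrays, and their paf1 deletion differences ran from -0.22 to 0.54. GAL2, the galactose transporter gene, scored 0.79 to 2.63. HO, the mating-type switching endonuclease gene, scored 5.40 and 4.99 on the wild type arrays, 3.62 and 2.78 on the paf1 deletion arrays and 3.73 on the ctr9 deletion array, a paf1 deletion difference of -1.99 (limma adjusted p = 0.225). The a-cell genes MFA1, MFA2, STE2, BAR1, STE6 and AGA2 were above background in every strain, and in the alpha-cell list MF(ALPHA)1 scored 0.85 to 1.79 and STE3 1.69 to 2.47. ASG7, an a-cell gene, scored 1.27 to 3.20 and the alpha-cell gene MF(ALPHA)2 1.82 to 3.10, both near background. SAG1, the alpha-agglutinin gene, scored 4.63 and 3.24 on the wild type arrays and 7.75 to 8.71 on the deletion arrays. It was higher in the paf1 deletion by 4.30 (limma adjusted p = 0.0259), where 0.28% of all probe sets passed as higher. In the ctr9 deletion, with 1 array, SAG1 did not pass, though the difference of 4.36 was of like size. The mating-type lists were chosen with earlier results known, so these values are a description. All 5 strain arrays thus had the RNA of the main a-cell genes in common.

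Among probe sets that list 1 gene, ranked by the root mean square difference between centred profiles over the 5 strain scores, PAF1 itself was the most like TRP1, at 1.10 score units, followed by SRD1, linked to ribosomal RNA processing, at 1.36. SRD1 scored 8.25 and 7.45 on the wild type arrays, 7.37 on the ctr9 deletion array and 0.66 and 1.83, both background, on the paf1 deletion arrays. The next of these, SPA2, a polarity gene, was farther off at 2.65. The genes nearest to HIS3 8359_at were BOP2 at 2.04, FIG1, a mating membrane protein gene, at 2.23 and SPG4 at 2.42, and those nearest to 8360_at were BOP2 at 1.49, FIG1 at 1.51 and GLC3, the glycogen branching enzyme gene, at 1.54. All 4 had ctr9 deletion scores of 3.02 or more, where HIS3 was at background. Over the log2 signals of the time course, LEU2 2437_s_at was nearest to BUD7, RAD55 and VAM7, at 0.283 to 0.295, but all its signals were background.

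A count over all probe sets used limits set after the values were seen. Above background on all wild type and ctr9 deletion arrays but not in the paf1 deletion were 38 of 9275 probe sets, or 0.410%, and in 5 of these the lowest high score exceeded the highest low one by more than 3 score units. The 5 were TRP1, PAF1, SRD1, a probe set shared by the 4 ASP3 genes of asparaginase II, and one shared by YLR154C-H, YLR156C-A, YLR157C-C and YLR159C-A. The ASP3 probe set scored 8.60, 8.23 and 8.70 in wild type and the ctr9 deletion, and 1.40 and 1.51 in the paf1 deletion. The reverse pattern was met by 56 probe sets, or 0.604%, and the 2 with a gap above 3 score units were both of HIS3.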

How the data were processed

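The strain columns hold a score per probe set, as deposited by the authors, and the time course columns a linear signal intensity, as deposited by the authors. Biotinylated cRNA had been made from total RNA, per the labels' protocols, and control probe sets carry Affymetrix names. Software, background and scaling steps are not given in the sources used here. Genes came from the platform annotation, and neighbours from RefSeq assembly R64. The array build is not named, so no coordinates are given. Of 9335 probe sets 60 were controls, and 9275 were tested with no filter on low values, since a filter at the 30th percentile (mean score 2.84) removes HIS3, URA3 and LEU2 2437_s_at from the strain fit. R 4.3.3 with limma 3.58.1 gave the linear models (lmFit and eBayes, variance trend on). The procedure was tested on simulated data with the same spread for every probe set, so unequal spreads were not covered. The strain fit used 5 arrays with 2 residual degrees of freedom, the lone ctr9 array being assumed to vary like the others. The slope used 6 arrays with 4, on log2 signal after signals under the 10th percentile (5.6) were set to it. Scores were used without a logarithm, for which the design allowed. P-values are two-sided, Benjamini-Hochberg adjusted over the 9275 probe sets. P-values measure the spread between arrays, which may be technical, and the number of arrays limits the precision.

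The members, the pathway, marker and mating-type lists and the neighbour and likeness rules were chosen with earlier results of these data known. For a gene on a list with several probe sets, that of the highest mean score was taken. Named genes were the members, PAF1, CTR9, GCN4, list members with large differences, neighbours, and the 3 genes nearest in profile to a member whose range passed the 90th percentile. Replicate numbers were not used as pairs.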

Additional observations from a re-analysis of the deposited data

Results flagged for a closer look

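A control probe set on the arrays named for URA3, which is outside the 9 probe sets described, gave values above the controls without a yeast target. It scored 3.07 and 3.76 on the wild type arrays, 2.43 and 1.74 on the paf1 deletion arrays and 2.72 on the ctr9 deletion array, with a mean of 2.74, so 4 of 5 scores were above the highest control score of 1.93, where all 5 scores of URA3 5724_at were background. In the TetO2-Paf1 strain its signal ran from 447 to 660 with a median of 628, above the highest control signal of 44.2 on all 6 arrays. Which stretch of URA3 this probe set covers is not given in the sources used here.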

How the results depend on the processing

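With 2 or fewer arrays per strain, the counts of calls moved with the fit, while the differences of TRP1 and HIS3 between the paf1 deletion and wild type kept their direction in each alternative that could give them. Between the paf1 deletion and wild type 41 probe sets passed, 37 with quantile normalization, 41 in a fit of those 2 groups only, 111 with a filter at the 30th percentile, 3 with percentile ranks, 9 without a variance trend, and 0 to 181 with 1 array left out, namely 0 without either wild type array and 161 or 181 without a paf1 deletion array. Marker probe sets among them numbered 3, but 1 with the filter, which removed HIS3, 2 with percentile ranks, and 0 to 3 with 1 array left out. Wild type and paf1 deletion arrays share replicate numbers but did not deviate together by number (correlation 0.032 over 9275 probe sets), and a fit with that number as a block gave 61, again with 3 marker probe sets. Between the ctr9 deletion and wild type 0 passed, 2 with the filter and 0 to 71 with 1 array left out, 70 or 71 being without a paf1 deletion array. Between the deletions 5 passed, 2 with quantile normalization, 0 with ranks, 0 without the trend and 0 to 23 with 1 array left out, 0 again being without a wild type array. Markers among these were 2, but 1 with the filter, 1 with quantile normalization, 0 with ranks, 0 without the trend and 0 to 2 with 1 array left out. No slope passed under any alternative, including one without the 4 and 6 h arrays that was added after seeing the data. Slopes near 0 changed sign, for LEU2 2437_s_at (0.0033, at background) to -0.016 with a floor at the 20th percentile, -0.0023 with a pseudocount of 16, -0.028 with quantile normalization, and -0.019, -0.0053 and -0.17 without the 2, 4 and 8 h arrays, for URA3 to -0.0022 and -0.022 without the 2 and 8 h arrays, and for TRP1 to 0.0042 without the 8 h array. The cause of these moves was not tested, apart from probe sets that a filter removes.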
